A study of Homo sapiens with 2 samples.

Results

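Chemokines are small secreted proteins that draw leukocytes along a gradient, and 10 of their genes are described here in human renal carcinoma cells with and without a working VHL gene. The genes were CXCL1, CXCL2, CXCL3, CXCL5, CXCL6, CXCL8 (listed under its older alias IL8 in some annotations), CXCL10, CCL2, CCL5 and CCL20. They were found through every probe set annotated to a single gene that is 1 of these, which gave 17 probe sets for 10 genes out of 19775 genes represented on the array. No probe set annotated to several genes held 1 of the 10.

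Biotin-labelled total RNA of 2 cell lines was read on Affymetrix arrays, each line on 1 array. 786-O is an established clear-cell renal carcinoma line with a mutated VHL allele, and 786-VHL is a line derived from it that holds a functional VHL allele. The series title places both lines in a study of EMCV, a picornavirus, but the labels name no infection, treatment or time for either array. The labels do not say how the VHL allele was introduced or whether 786-VHL is a single clone, so differences due to VHL and other differences between the lines cannot be told apart. Since neither line had a second array, no difference could be checked against replicates or tested, and precision is limited by the number of arrays.

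The family is divided by the spacing of the first cysteines of the mature protein. CXCL1, CXCL2, CXCL3, CXCL5, CXCL6 and CXCL8 carry a glutamate-leucine-arginine motif before a CXC motif, bind the receptor CXCR2 and attract mainly neutrophils, and they are also known as angiogenic factors. CXCL10 lacks that motif, is induced by interferon and attracts activated T cells through CXCR3, while CCL2 attracts monocytes, CCL5 T cells and monocytes, and CCL20 cells that carry CCR6. In epithelial cells many of these genes are induced by interleukin-1 or tumour necrosis factor through NF-kB, and their messages are short-lived because of AU-rich elements.

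The arrays gave 54613 probe sets each, with median intensities of 21.97 in 786-O and 22.58 in 786-VHL, in arbitrary units on a linear scale. Intensities were compared as log2(value + 16), and a difference is 786-VHL minus 786-O, so a negative value is lower on the array of 786-VHL. Folds are on the same scale, which understates differences of dim probe sets. A probe set or gene is called measured where its higher value exceeds 22.3, the pooled median of all values, called the floor. VHL itself lay near or below the floor on its probe sets (28.9 and 15.96 on the brighter, 6.32 and 7.96 on the dimmer, in 786-O and 786-VHL), so it did not check the labels. The one available measure of error was how far probe sets of the same gene differed, a pooled SD of 0.33 log2 units over 6436 genes with several measured probe sets, which does not cover differences between cultures or arrays.

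CXCL1, CXCL2 and CXCL3 are close paralogs first described as growth-related oncogenes. CXCL1 read 2163 in 786-O and 456 in 786-VHL on its only probe set, 4.61-fold lower in 786-VHL (difference -2.21). Its signal was brighter than 98.2% of all probe sets on the first array and 90.6% on the second, so its place within the array also differed. Among 13291 measured genes CXCL1 ranked 37 from the lowest difference.

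CXCL2 had 553 in 786-O and 167 in 786-VHL on probe set 209774_x_at, 3.12-fold lower in 786-VHL (difference -1.64). Its other probe sets did not reach the floor, with 13.1 and 12.0 on 230101_at and 9.78 and 10.5 on 1569203_at, and so gave no second reading. CXCL3 was dimmer, with 63.6 in 786-O and 22.5 in 786-VHL, 2.07-fold lower in 786-VHL (difference -1.05). The value of CXCL3 in 786-VHL was just above the floor, and the size of its difference followed the pseudocount, from -1.46 with 1 to -0.56 with 64. Because these paralogs are similar in sequence and the suffix _x_at marks probes that can match other transcripts, how the signal divides among CXCL1, CXCL2 and CXCL3 is uncertain.

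CXCL8, which encodes interleukin-8, was read by a pair of probe sets that both lay far above the floor. On 202859_x_at its intensity was 4620.5 in 786-O and 1552 in 786-VHL, 2.96-fold lower in 786-VHL (difference -1.56). On 211506_s_at it was 2348 and 964, 2.41-fold lower (difference -1.27). Both readings went the same way and were 0.29 log2 units apart, within the SD between probe sets of a gene.

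CXCL5, also called ENA-78, gave readings that did not match each other. Its intensity was 2284 in 786-O and 1124 in 786-VHL on 214974_x_at, 2.02-fold lower in 786-VHL, and 1207 and 558 on 215101_s_at, 2.13-fold lower. The remaining probe set, 207852_at, was dim, at 30.2, and its deposited value was identical on both arrays. CXCL5 therefore counts as lower on its bright probe sets, with differences of -1.01 and -1.09, and as 0 on the dim one. The differences on the bright probe sets lay just past the 2-fold limit. CXCL6, the closest relative of CXCL5, did not reach the floor on either array, with 5.93 in 786-O and 7.03 in 786-VHL.

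CXCL10, the interferon-induced member, did not reach the floor either, with 11.7 in 786-O and 14.0 in 786-VHL. Among the CC chemokines, CCL2 was well above the floor on its only probe set, 216598_s_at, with 1073 in 786-O and 574 in 786-VHL. It was 1.84-fold lower in 786-VHL (difference -0.88), the same direction as the CXC genes but just short of 2-fold. CCL5 had 26.1 on 1555759_a_at, a deposited value identical on both arrays, and lay below the floor on its other probe sets, at 9.92 and 11.0 on 204655_at and 7.20 and 6.63 on 1405_i_at. CCL20 also stayed below the floor, with 10.6 in 786-O and 12.3 in 786-VHL.

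**Figure D1:**
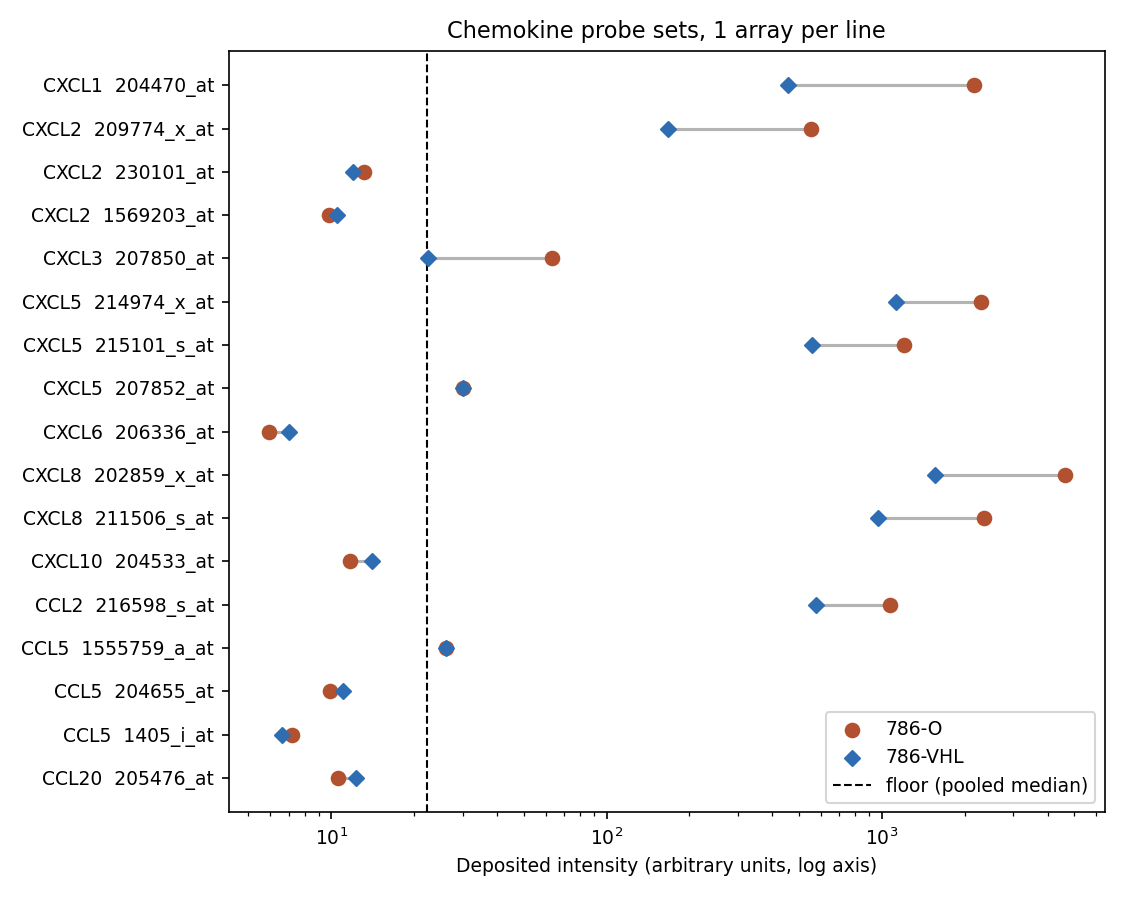
Deposited intensity (arbitrary units, log axis) of each of the 17 chemokine probe sets in 786-O (circles) and 786-VHL (diamonds), 1 array per line; grey lines join the values of a probe set and the dashed line is the floor of 22.3. The bright probe sets of CXCL1, CXCL2, CXCL5, CXCL8 and CCL2 and the dimmer one of CXCL3 have the diamond to the left, and the probe sets below the floor have nearly coinciding symbols.

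Of the 17 probe sets 10 were measured, 8 of them lower in 786-VHL, 2 identical on both arrays and 0 higher. Over all measured probe sets 44.1% were lower. At least 2-fold lower were 7 of the 10, beside 2.7% of all 24414 measured probe sets, and 0 were at least 2-fold higher, beside 1.42%. By gene, represented by the probe set with the highest mean of both arrays, 7 of the 10 chemokines were measured, and each of these was above the floor on both arrays, so none was measured through 786-O alone. CXCL1, CXCL2, CXCL3, CXCL5 and CXCL8 made up the 5 that were at least 2-fold lower, beside 2.18% of all measured genes, and none was at least 2-fold higher, beside 1.54%. CXCL1 alone was at least 4-fold lower, beside 0.331%. With the floor raised to the 75th percentile of all values, 4 of 5 measured chemokines were at least 2-fold lower, beside 2.77% of measured genes. The median difference of the 7 measured chemokine genes was -1.05, and that of all measured genes 0.05. Lower in 786-VHL were 6 of the 7 chemokine genes, beside 41.8% of all measured genes. CXCL1, CXCL2 and CXCL3 may share signal, so these genes are not independent readings. The genes were chosen with earlier results of these arrays known, and the shares are a description of these 2 arrays.

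The calls for CXCL1, CXCL2 and CXCL8 were at least 2-fold lower under each setting that gave them a value, with differences from -2.29 to -2.10, -1.73 to -1.42 and -1.65 to -1.42. CXCL3 and CXCL5 lay near the limit, and with a pseudocount of 64 neither was 2-fold lower. Restricting to probe sets that carry none of the suffixes _s_at, _x_at and _a_at left CXCL1 and CXCL3 at least 2-fold lower and CXCL5 at 0, and gave no measured value for CXCL2, CXCL8, CCL2 and CCL5.

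**Figure D2:**
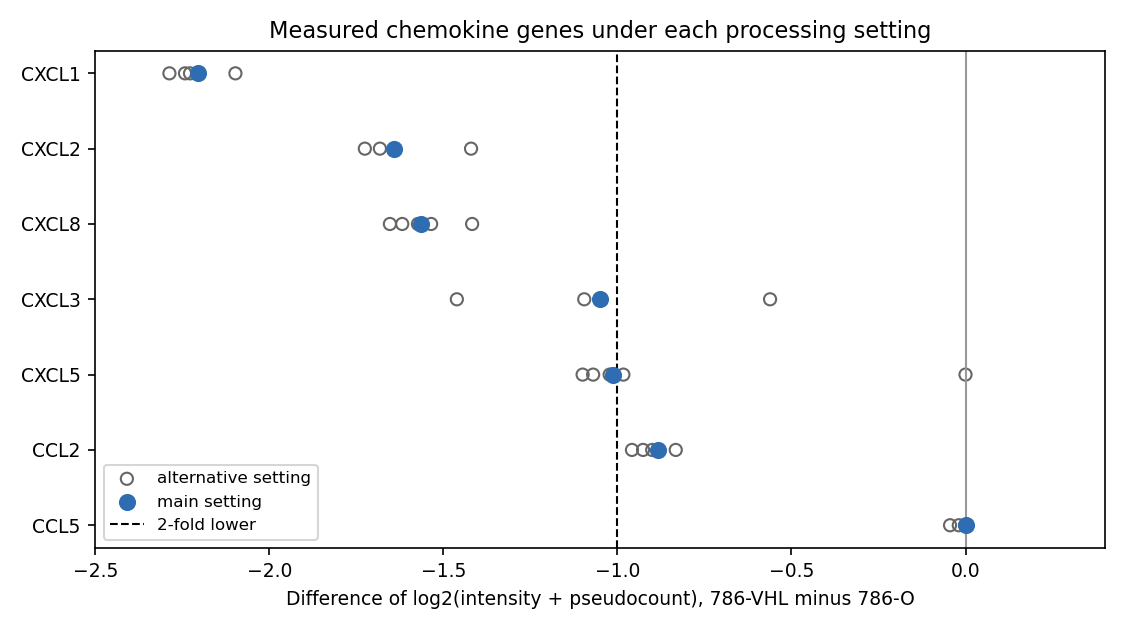
Difference of log2(intensity + pseudocount), 786-VHL minus 786-O, for the 7 measured chemokine genes (filled, main setting with a pseudocount of 16; open, each alternative setting); the dashed line is 2-fold lower. CXCL1, CXCL2 and CXCL8 stay left of the line, CXCL3 spreads from -1.46 to -0.56, and CXCL5 has an open circle at 0 from its dim probe set.

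Stretches before the transcription start sites are shown for the genes that share a short run of letters there. These are CXCL1, CXCL2, CXCL3, CXCL5 and CXCL8, and also CXCL6 and CXCL10, which were below the floor in both lines. Whether the run has a part in the differences was not tested. RefSeq windows from 250 bases before to 50 after the start (GRCh38.p14) were matched by symbol for 8 of the 10 genes, not for CCL2 and CCL5. Each sequence is given 5′ to 3′ on the strand of its gene, and capitals mark matches, on either strand, to the NF-kB consensus motif or to the letters GGAATTTCC. The window of CCL20, a gene below the floor in both lines, is not shown. It lacks the letters GGAATTTCC but holds a consensus match on the opposite strand, from -79 to -70 relative to the start.

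CXCL1 (chr4:73869294-73869364, plus strand): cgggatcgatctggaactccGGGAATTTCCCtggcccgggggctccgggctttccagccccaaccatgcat
CXCL2 (chr4:74099223-74099293, minus strand): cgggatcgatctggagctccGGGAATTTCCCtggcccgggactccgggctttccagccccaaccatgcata
CXCL3 (chr4:74038718-74038788, minus strand): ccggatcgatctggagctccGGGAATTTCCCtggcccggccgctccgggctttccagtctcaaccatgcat
CXCL5 (chr4:73998718-73998788, minus strand): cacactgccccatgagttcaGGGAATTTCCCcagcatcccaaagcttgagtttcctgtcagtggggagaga
CXCL6 (chr4:73836568-73836638, plus strand): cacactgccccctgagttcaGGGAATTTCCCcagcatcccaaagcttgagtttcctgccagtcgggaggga
CXCL8 (chr4:73740458-73740526, plus strand): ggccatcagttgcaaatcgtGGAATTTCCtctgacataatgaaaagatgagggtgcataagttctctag
CXCL10 (chr4:76023570-76023694, minus strand): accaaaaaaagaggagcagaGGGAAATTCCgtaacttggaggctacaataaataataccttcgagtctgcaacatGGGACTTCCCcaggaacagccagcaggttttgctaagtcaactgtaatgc

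CXCL1, CXCL2, CXCL3, CXCL5 and CXCL6 hold the run GGGAATTTCCC, in which the NF-kB consensus matches on both strands, offset by 1 base. The NF-kB consensus was found in 7 of the 8 chemokine windows, CXCL8 being the exception, and in 11.3% of 35116 windows of the same length. In CXCL8 the letters GGAATTTCC follow a T where the consensus has a G, and the remaining letters match it. The absence of a consensus match therefore does not show that CXCL8 lacks an NF-kB site. The shorter run GGAATTTCC was searched after the sequences and the intensities had been seen. In each gene that holds it but CXCL8 it lies inside a consensus match. It was found in 7 of the 8, CCL20 being the exception, and in 0.461% of all windows. Because the run was picked from these same windows, its share among the 8 is not independent evidence. CXCL6 has the run as CXCL5 does, and the windows of this pair were 83.1% identical, yet CXCL5 was bright on 2 probe sets in both lines and CXCL6 was below the floor. The windows of CXCL1 and CXCL3 were 82.5% identical, those of CXCL1 and CXCL2 71.9%.

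Other motifs were rarer among the chemokines. The core of the interferon-stimulated response element was found in CXCL10 alone of the 8, and in 3.57% of all windows. The AP-1 motif TGANTCA was found in CXCL8 alone, before the letters shown, and in 7.71% of all windows. The core of the hypoxia response element, ACGTG, which HIF binds, was found in CXCL10 alone and in 21.4% of all windows. Both strands were searched. A match describes letters and does not show that a factor binds.

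The CXC genes lie on chromosome 4, 6 of them in a run from CXCL8 to CXCL2 and CXCL10 further along, while CCL2 and CCL5 lie on chromosome 17 and CCL20 on chromosome 2. Inside the run of CXC genes, the platelet chemokine gene PF4 was measured, at 37.1 in 786-O and 41.8 in 786-VHL, a difference of 0.12. PF4V1 and PPBP, between the chemokines that were lower, were below the floor on both arrays. Just past CXCL2, the folate enzyme gene MTHFD2L had 80.8 and 72.8, a difference of -0.12, and EREG, which encodes the growth factor epiregulin, had 1694 and 2086, a difference of 0.30, with another probe set at -0.28. Between MTHFD2L and EREG, the uncharacterised noncoding gene LOC105377276 had 382 in 786-O and 132 in 786-VHL, 2.68-fold lower on its only measured probe set (difference -1.42). In the whole segment, from 5 genes before CXCL8 to 5 after CXCL10, 11 neighbours were measured, and LOC105377276 was the only 1 at least 2-fold apart, with 8 of the 11 higher in 786-VHL and a median of 0.12. Over all 13291 measured genes 7555 were higher in 786-VHL, with a median of 0.05.

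**Figure D3:**
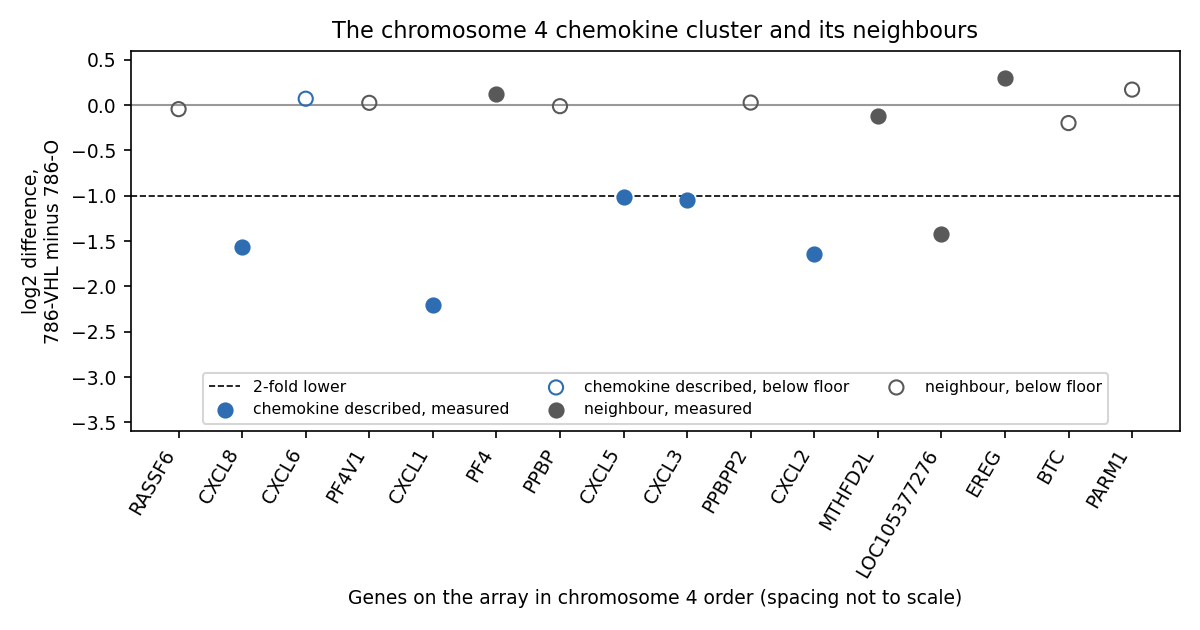
Difference of log2(intensity + 16), 786-VHL minus 786-O, for genes of the array in chromosome 4 order around the CXC cluster (blue, chemokines described here; grey, neighbours; open symbols, below the floor; spacing not to scale). CXCL8, CXCL1, CXCL5, CXCL3 and CXCL2 lie below the dashed line of 2-fold lower, as does LOC105377276 at -1.42, while PF4, MTHFD2L and EREG lie between -0.12 and 0.30.

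Around the CC chemokines few neighbours were far apart. Between CCL2 and CCL5 and up to 5 genes to each side, 16 neighbours were measured, with a median of 0.14. Higher in 786-VHL were 11 of the 16, beside 7555 of all 13291 measured genes. TAF15, which encodes an RNA-binding protein, was at least 2-fold lower, at 669 against 268, with a difference of -1.27 on 1 probe set and -0.49 on the other. Beside CCL20 only DAW1, an assembly factor of cilia, was measured, at 60.2 in 786-O and 18.6, below the floor, in 786-VHL, at least 1.99-fold lower with 786-VHL set to the floor, and not 2-fold apart with a pseudocount of 64 (difference -0.59).

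The other chemokines were mostly dim. Of 34 listed, 29 were on the array under a single-gene probe set and 8 were measured. Higher in 786-VHL were 5, beside 7555 of all 13291 measured genes, and 3 were lower. None of the 8 was 2-fold apart, and their median was 0.12. CX3CL1, the membrane-bound chemokine fractalkine, had the largest difference and went the other way from the CXC genes, at 74.4 in 786-O and 155 in 786-VHL (difference 0.92, and 1.38 on its other measured probe set). CX3CL1 was past 2-fold higher with a pseudocount of 1 or by the median over its probe sets. With the floor raised to the 75th percentile CX3CL1 alone of this list was measured, so the list median of 0.92 was its own difference. CCL21 and CCL22 followed, at 0.34 and -0.25. CXCL9 and CXCL11, which share the receptor of CXCL10, were below the floor on both arrays.

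Of 23 chemokine receptors 21 were on the array and 6 were measured, with differences from 0.01 to 0.41, none 2-fold apart, and a median of 0.11. CCRL2, an atypical receptor that binds chemerin, had 56.3 and 80.1 (0.41), CXCR3 had 38.7 and 51.5 (0.30), and CXCR5 had 21.96, below the floor, and 25.3 (0.12). The receptors of the neutrophil chemokines, named after their values were seen, were CXCR1, at 37.5 and 40.6, and CXCR2, below the floor at 7.72 and 7.46. Receptor differences of this size lay within or near the SD between probe sets of the same gene.

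Of the listed NF-kB subunits and regulators 16 of 18 were measured, with a median of -0.14. In 786-VHL 11 were lower and 5 higher, beside 5553 lower and 7555 higher of all 13291 measured genes. On the representing probe sets only TNFAIP3, which encodes the feedback inhibitor A20 and is itself induced by NF-kB, was at least 2-fold lower, at 400.1 in 786-O and 179 in 786-VHL (difference -1.09, and -1.03 on its other probe set). NFKBIZ, which encodes an atypical IkB protein, differed by -0.34 on its representing probe set and by -1.35 on the other. The inducing cytokines and their receptors were divided evenly, 10 lower and 10 higher of 20 measured, with a median of 0.03, or -0.0079 with the intensity trend removed. TNF, which induces these chemokines, was 2.62-fold lower in 786-VHL, at 89.0 against 24.1, a dim probe set close to the floor in 786-VHL. IL1R1, the signalling receptor of interleukin-1, was 2.31-fold higher in 786-VHL, at 134 against 330, but its other probe set differed by 0.32. With a pseudocount of 64 none of TNFAIP3, TNF and IL1R1 was 2-fold apart. IL1B had 52.6 and 47.7, and IL1A was below the floor on both arrays; these ligands were named after their values were seen.

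None of the genes for factors that act with NF-kB or on the messages was 2-fold apart on its representing probe set, but some had another measured probe set past 2-fold. Of 10 measured AP-1 and C/EBP genes the largest differences were in JUNB at 0.55, ATF3 at 0.52, below the floor in 786-O, and JUND at -0.50, with a median of 0.14. JUN, which encodes a core AP-1 subunit, differed by -0.31 on its representing probe set, while its 4 measured probe sets ranged from -1.61 to -0.17. Of 7 measured interferon-side transcription factors, IRF1 differed by 0.45, IRF7 by -0.37 and STAT3 by -0.24, with a median of -0.06. The 3 measured probe sets of STAT3 ranged from -1.10 to -0.10. Of 9 measured genes for AU-rich message decay and stability, ZFP36L1, which promotes decay of such messages, differed by 0.63 and by 1.09 on its other probe set, ZFP36L2 by 0.49 and CNOT1, the scaffold of a deadenylase complex, by 0.47, and the median was 0.01, or -0.05 after quantile normalization and -0.07 with the intensity trend removed.

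**Figure D4:**
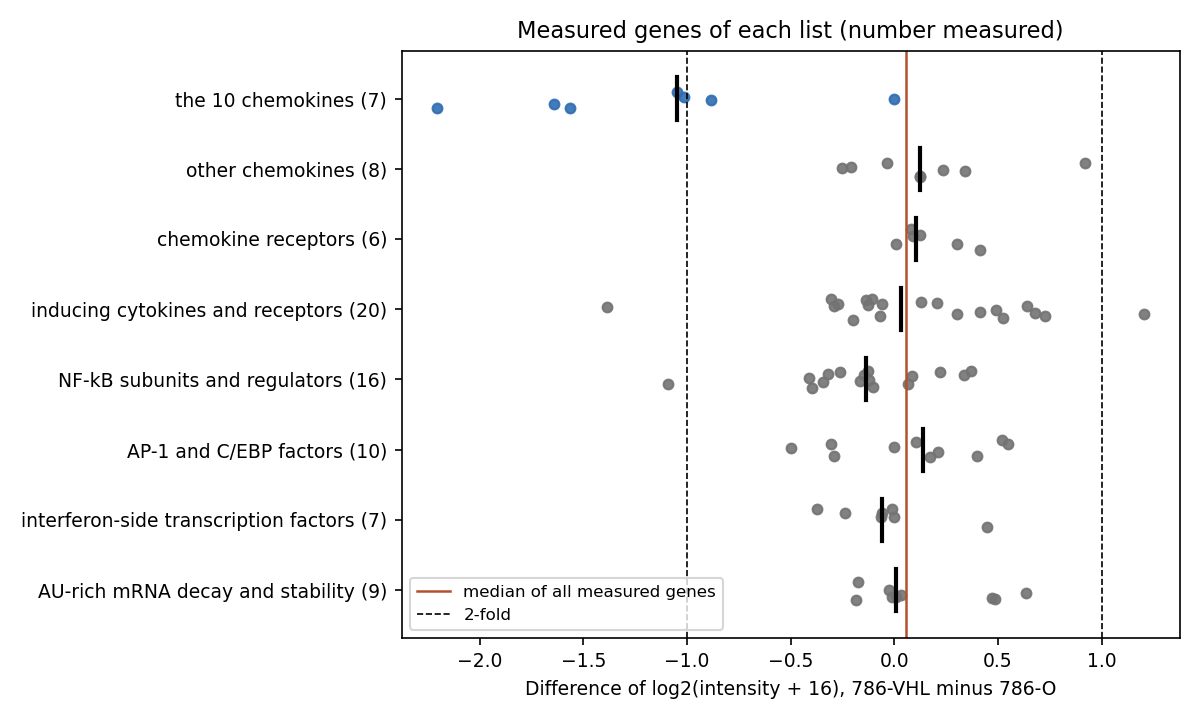
Difference of log2(intensity + 16), 786-VHL minus 786-O, for each measured gene (points) of the chemokines and 7 related lists, with the list median (black bar), the median of all measured genes (orange line) and 2-fold limits (dashed). The chemokine points reach -2.21 with a median of -1.05, whereas the medians of the other lists lie between -0.14 and 0.14.

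All 7 genes listed for kidney tubule and renal carcinoma epithelium were above the floor on both arrays, with the kidney transcription factor gene PAX8 at 1521 and 1068. They ranged from LHX1, near the floor at 29.2 in 786-O and 35.3 in 786-VHL, to VIM at 13034 and 12498. Of 6 leukocyte markers on the array only CSF1R was above the floor, at 40.1 and 48.4, and PTPRC, the pan-leukocyte marker, was below it at 11.3 and 12.1. The summed intensity of the leukocyte list was 108 in 786-O and 123 in 786-VHL, of the 5 endothelial markers 86.5 and 107, and of the 6 fibroblast and pericyte markers 184 and 215. In the last list LUM, which encodes the matrix proteoglycan lumican, had 5.64, below the floor, in 786-O and 37.1 in 786-VHL, at least 1.39-fold higher with 786-O set to the floor, while the collagen gene COL1A1 had 94.8 and 79.9. Each of these sums was slightly higher in 786-VHL. The sum of the epithelial list, of which VIM was the largest part, was 22033 in 786-O and 21136 in 786-VHL. By gene, 4 of the 7 epithelial markers were higher in 786-VHL and 3 lower, with a median difference of 0.05. Many of the summed values lay below the floor. Above it in 786-O were 1 leukocyte, 1 endothelial and 2 fibroblast or pericyte markers, and in 786-VHL 1, 3 and 3. The part of these sums in the chemokine differences was not tested.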

How the data were processed

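One array per line was analysed. The table deposited by the authors holds linear intensities, judging by their range. R 2.10 is named in the submitters' processing notes; how background, normalization and probe summary were handled is not given in the sources used here and could shift or compress differences. Genes were taken from the 41091 probe sets that the platform annotation assigns to a single gene, renamed through Entrez numbers. Gene order came from the RefSeq table of GRCh38.p14. Genes named were the 10 chemokines and, per list of related genes or neighbours, measured genes at least 2-fold apart or otherwise the 3 with the largest difference; marker genes and a few others were named after their values were seen. The members and lists were chosen with earlier results of these data known. Alternatives were pseudocounts of 1 and 64, quantile normalization, removal of the intensity trend, no floor, a floor at the 75th percentile, 1.5-fold, unsuffixed probe sets and the median over probe sets. The procedure was run on simulated data with 4-fold differences planted in genes well above the floor. That run does not bear on calls near 2-fold or near the floor. A planned comparison of protein sequences was not run. Python 3.11.15, numpy 2.4.6, pandas 2.3.3, statsmodels 0.14.6 and matplotlib 3.10.9 were used.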

Additional observations from a re-analysis of the deposited data

How the results depend on the processing

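No paired analysis was possible because there was a single array of each line, which also left no replicate to omit. The number of chemokine genes at least 2-fold lower in 786-VHL was 5, and 3 with a pseudocount of 64. The shares of all measured genes at these settings were 2.18% and 1.10%. Restricting to probe sets that carry none of the suffixes _s_at, _x_at and _a_at gave 2 genes and 2 probe sets at least 2-fold lower, in place of 5 and 7, with 3 chemokine genes measured. With that restriction 2.36% of all 10095 measured genes were at least 2-fold lower. Of 57 alternative values of single chemokine genes 54 moved by less than the SD between probe sets of the same gene, 3 by more (CXCL3 with both pseudocounts and CXCL5 without suffixed probe sets), and none that was 2-fold apart changed sign. Many of the 57 could not move, so this count is not a measure of stability. The floor settings and the 1.5-fold threshold leave the difference of a gene as it was. So does the median for a gene with a single measured probe set. Over all measured genes, 394 were at least 2-fold lower with a pseudocount of 1, 146 with 64 and 871 past 1.5-fold, against 290.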

Other observations

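The deposited values of 2127 probe sets (3.89%) were identical on both arrays, with a median intensity of 10.6 and a highest of 1531. They made up 1.51% of the probe sets above the floor and 6.51% of those below it, and include the readings of CXCL5 on 207852_at and of CCL5 on 1555759_a_at. A further 635 probe sets differed by a whole number of intensity units to within 1e-06, among them CXCL8 on 202859_x_at, with a difference of 3068 units, and CXCL5 on 215101_s_at, with 649 units. The decimals of that CXCL8 probe set recurred, to within 1e-05, in 714 values of 786-O and 748 of 786-VHL. How the summary of probes made such values is not given in the sources used here.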
